A study of Mus musculus with 39 samples.

Results

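The genes described here lie in or beside the imprinted gene clusters of mouse chromosome 7. They are the protein-coding and lncRNA genes whose start falls in 4 windows of the GRCm38 build, at 4.7 to 8.9 Mb around Peg3, 57.2 to 64.5 Mb around Snrpn, 126.6 to 130.7 Mb around Inpp5f, and 140.5 to 145.4 Mb around Igf2 and Kcnq1, and whose mean read count over the libraries used was 10 or more. A fixed list of imprinted genes of these windows was left out and serves as the comparison. The list includes Osbpl5, Cd81, Tssc4 and Nap1l4, taken here as imprinted mainly in placenta, while the tissue was cortex. Igf2 was on the list but had a mean count under 10 and is not in the comparison. Ccnd1, Fadd and all symbols starting with Rp, Gabr, Kcn, Cox or Nduf were left out as well. Members were not screened for imprinting beyond that list. The study takes the putative maximum extent of the Kcnq1 cluster as Ascl2 to Ano1, and members such as Cars and Tnfrsf22 lie inside it. Of 53379 genes in the count tables, 11472 had a mean count of 10 or more, and 136 of these were members: 23 in the Peg3 window, 7 in the Snrpn window, 62 in the Inpp5f window and 44 in the Igf2 and Kcnq1 window. The members were thus chosen by their position and selected on their mean read count, so their levels are given as a description and were not tested.

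The RNA came from cells of the dissected neocortex of single mouse embryos, sorted in small pools at embryonic day (E) 13 or 16. The embryos carried the MADM-7-GT and MADM-7-TG cassettes on chromosome 7 together with Emx1-Cre, which is active in the dorsal telencephalic lineage, and the labels give the strain as CD1 and the background of the MADM work as mixed C57BL/6J, CD1. MADM (Mosaic Analysis with Double Markers) recombines the homologous chromosomes in dividing cells and leaves red (tdTomato) and green (GFP) cells with uniparental disomy of chromosome 7 in opposite parental directions, and yellow cells with both markers and a copy from each parent. All 3 colours therefore came from the same embryos and carried the same cassettes and Cre, and no untreated or wild-type embryo was included. Each colour had 6 libraries at E13 and 7 at E16, and 36 of the 39 had 40% or more uniquely aligned reads and were used, leaving 5 per colour at E13. The labels state the colour and not the parent, so the contrasts are between colours. The parental direction given in the study's own sample table was not used here, and no test by parental direction was run.

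Genomic imprinting marks the parental copies of a gene differently, usually by DNA methylation at a control region, so that expression comes mainly from a single parental copy. Imprinted genes lie in clusters, where a control region can act over long distances through an insulator or a long non-coding RNA such as Kcnq1ot1. In a cell with uniparental disomy an imprinted gene is either doubled or silent, whereas a neighbour that is expressed from both parental copies keeps its dose. The question the neighbours address is therefore how far the difference between disomies reaches beyond the listed imprinted genes.

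The 4 windows held different kinds of neighbours. In the Peg3 window 13 of 23 members were zinc finger genes, most of which encode DNA-binding repressors, and the window also held Clcn4, a chloride/proton exchanger of endosomes. The Snrpn window is poor in genes and its members included Atp10a, a phospholipid flippase, and Klf13, a Krüppel-like transcription factor. The Inpp5f window held a dense block of genes including Mapk3, Aldoa, Taok2, Kctd13 and Kif22, and, directly beside Inpp5f, Mcmbp, which removes the MCM helicase from chromatin. The Igf2 and Kcnq1 window ran from Bet1l and Hras through Ctsd, a lysosomal protease, to Cars, the cytoplasmic cysteinyl-tRNA synthetase, Dhcr7, the last enzyme of cholesterol synthesis, Shank2 and Cttn. In all, 128 members were protein-coding and 8 were lncRNA genes, 20 had zinc finger symbols, and 64 shared exon bases with another annotated gene, so that part of their reads could not be assigned. Since the libraries carry no strand information, reads of a member and of an antisense partner in shared exons cannot be told apart. The 4 windows held 404 annotated genes that the rule would admit, and 138 of them had a count of 0 in every library used. At the threshold, Isoc2b and U2af2 (10.1 and 10.5 reads) were just inside in the Peg3 window and Isoc2a and Epn1 (8.19 and 6.44) just outside. Around Snrpn, Atp10a and Gm9801 (10.8 and 11.2) were inside and Gm38393 and Chrna7 (8.11 and 5.17) outside, around Inpp5f Bag3 and 1700008J07Rik (11.2 and 12.1) were inside and Stx4a and Gm42715 (9.83 and 9.17) outside, and around Igf2 Ifitm3 and Lsp1 (10.8 and 11.6) were inside and Slc25a22 and Mrgpre (8.67 and 8.03) outside.

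Levels spanned a wide range. Per kb of exon, and as the mean over 36 libraries of counts scaled to library size (CPM), the highest members of the Inpp5f window were Dctpp1, which hydrolyses dCTP, at 568, Ypel3, a yippee-like protein linked to growth arrest, at 107, and Nsmce4a, a subunit of the SMC5/6 complex, at 76.9 CPM per kb. In the Igf2 and Kcnq1 window Taldo1, a pentose phosphate enzyme, stood at 188, Cttn, the actin regulator cortactin, at 65.5, and Rnh1, the ribonuclease inhibitor, at 49.6 CPM per kb. The Peg3 window was led by Clcn4 at 46.8, Fiz1 at 30.5 and Zfp954 at 24.9, and the Snrpn window by Mcee at 22.7, Mphosph10 at 3.68 and Mtmr10 at 2.30 CPM per kb. By comparison the imprinted gene Ndn stood at 203 and Inpp5f at 27.4 CPM per kb. Many members were near the floor of these small pools: 23 of 136 had reads in every one of the 36 libraries (16.9%, against 25.9% of all genes tested), and 20 had none in at least 18 libraries. The mean count had a median of 69.5 over the members, with 57 members under 50 and 29 at 200 or more.

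The libraries used held 472924 to 5205788 gene counts each and detected 7858 to 13768 genes. Markers of cortical cells were present throughout: the summed level of 8 radial glia markers was 1608 to 2505 CPM in the 6 E13 embryos and 778 to 2794 CPM in the 7 E16 embryos, and that of 8 projection neuron markers was 4326 to 6838 CPM and 5789 to 8399 CPM. Each marker of the 8 lists had reads in some library, erythroid markers reached 10439 CPM in an E13 embryo, and the 4 microglia markers reached 21.2 CPM. In 6 libraries the median correlation of log2 CPM with the other libraries of their age lay more than 3 scaled median absolute deviations below the median of that age, and 4 embryos with a red and green pair, E13 replicate 4 and E16 replicates 5, 6 and 7, held such a library. In these 4 the median absolute green-red difference over all genes was 1.40 to 2.18 on the log2 scale, against 0.780 to 1.12 in the other 8, and mean absolute differences of named members that moved by over 1.5 times without the 6 libraries are given with and without them.

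The green-red difference was taken within each of the 12 embryos that had both libraries, as log2 CPM of green minus log2 CPM of red with a prior count of 2. The imprinted genes set the scale. The mean over 10 paternally expressed genes was higher in red in 6 embryos, by 2.73 to 4.95, and higher in green in the other 6, by 2.74 to 5.30, so that a contrast of the colours averages over both parental directions. For this reason the size of the difference, whatever its sign, was averaged over embryos and set against its trend with expression level over all 11472 genes. Above this trend stood Kcnq1ot1 with a mean absolute difference of 5.71 ± 3.27 (SD, n = 12), Cdkn1c with 5.10 ± 2.53, Ndn with 4.46 ± 2.06 and Snrpn with 3.75 ± 1.22.

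Differences of the neighbours were smaller. The median of the mean absolute difference was 1.84 over the 136 members, 1.72 over all genes tested, 1.81 over 650 other protein-coding and lncRNA genes of chromosome 7, and 3.42 over the 17 imprinted genes. The 17 include the mainly placental genes named above. Over the 10 paternally expressed genes among the 17 the median was 4.10. Measured from the trend, which takes account of level, the median was 0.10 for the members, 0.00 for all genes and 1.63 for the imprinted genes. Of the members 77 lay over the trend (56.6%, against 50.1% of all genes), and 13 were in the highest 10% of all genes by distance above it (9.56%, against 10% of all genes). No member was in the highest 1%, where 9 of the 17 imprinted genes were. By window the median distance from the trend was 0.16 around Peg3, 0.02 around Snrpn, -0.06 around Inpp5f and 0.16 around Igf2 and Kcnq1.

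**Figure D1:**
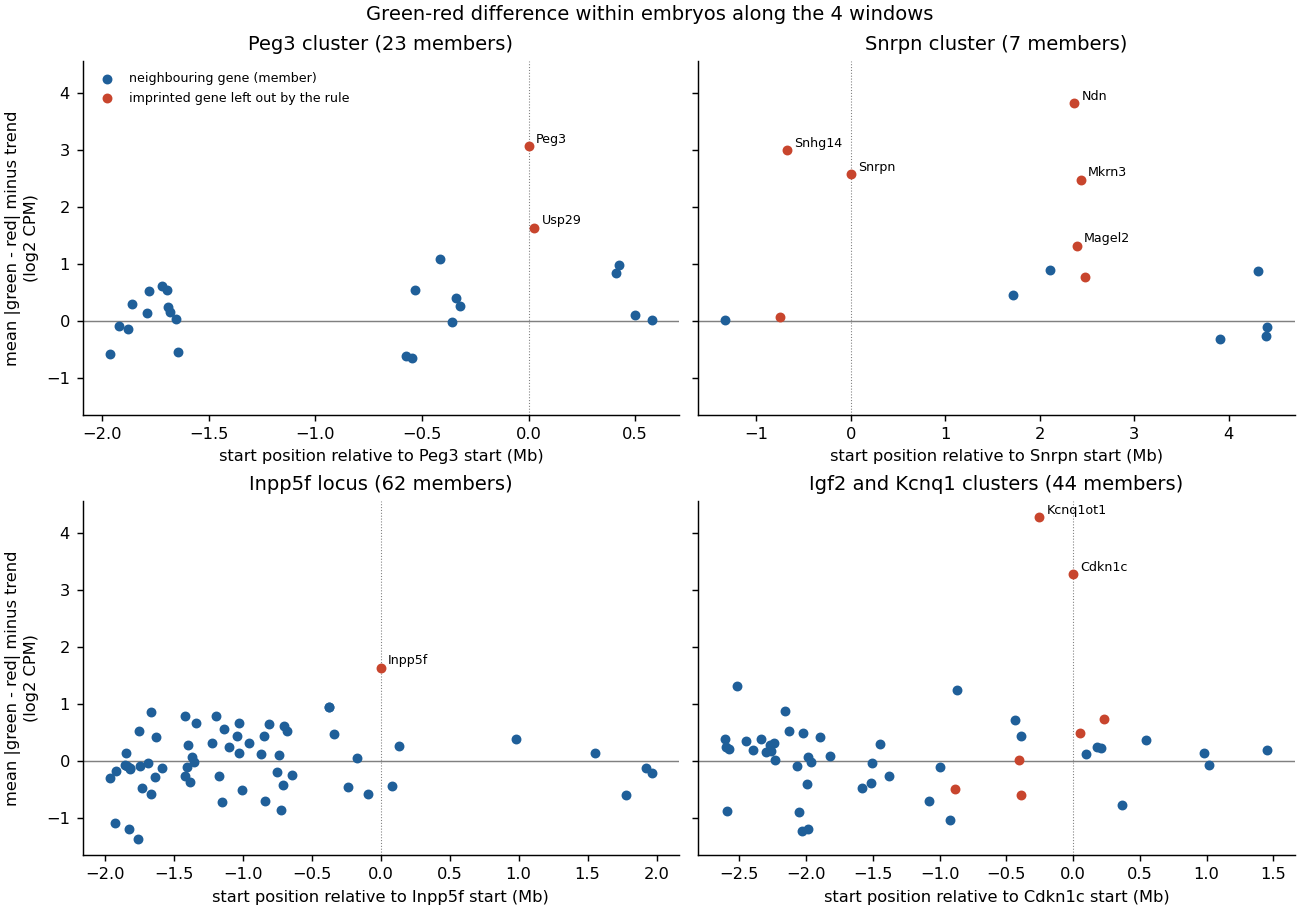
Mean absolute green-red difference (log2 CPM, 12 embryos) minus the trend over all genes tested, plotted against the start of each gene relative to Peg3, Snrpn, Inpp5f or Cdkn1c in Mb, with 1 panel per window. Members (blue) scatter around 0 on both sides of the imprinted genes (red), with a highest member value of 1.31, which 10 of 17 imprinted genes exceed.

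The member closest to an imprinted gene without overlapping it lies beside Inpp5f, a phosphoinositide phosphatase gene whose short isoform is expressed from the paternal copy in brain. Inpp5f lies on the plus strand of chromosome 7 (GRCm38, start 128611328, end 128696425), and Mcmbp on the minus strand (start 128696441, end 128740495), so the annotated 3' ends face each other 0.016 kb apart. The green minus red difference of Inpp5f was -2.12, -1.29, -1.89, 1.15 and 2.79 in the 5 E13 embryos and ranged from -3.98 through a median of 1.62 to 5.70 in the 7 E16 embryos, and it had the sign of the paternally expressed genes in 12 of 12. Mcmbp gave 0.67, -0.14, 0.76, -0.62 and 1.07 in the same E13 embryos and shared that sign in 5 of 12. Its mean absolute difference was 0.55 ± 0.47 (SD, n = 12), 0.45 below the trend, against 2.52 ± 1.27 for Inpp5f. In single libraries Mcmbp ranged from 60.9 to 183 CPM in red and 81.1 to 188 CPM in green at E13, with yellow at 103 to 154 CPM, so the colours overlapped. On the other side of Inpp5f, Bag3, a co-chaperone of selective autophagy, had reads in only 10 of 36 libraries, Tial1, an RNA-binding protein gene, differed by 1.20 ± 1.12 (0.68 without the libraries of low correlation), and beyond Mcmbp Sec23ip, which binds the COPII coat of transport vesicles, differed by 2.24 ± 2.41, 0.25 above the trend.

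**Figure D2:**
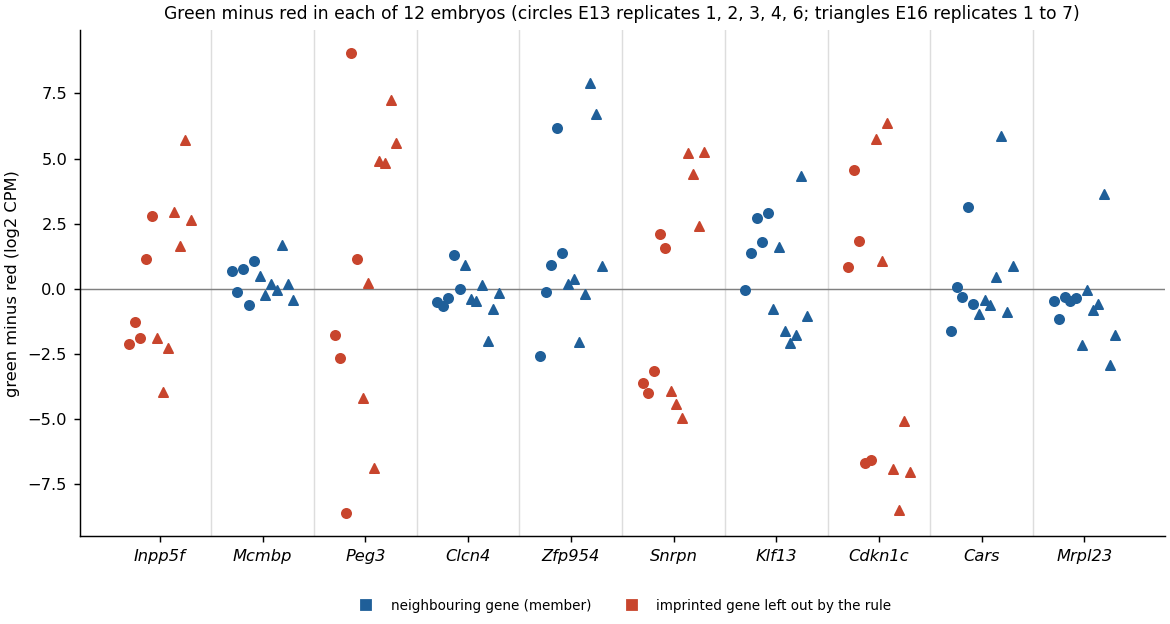
Green minus red (log2 CPM) in each of 12 embryos, left to right in the same embryo order within each gene, for 4 imprinted genes (red) and 6 members (blue), with circles for E13 and triangles for E16. Inpp5f, Snrpn and Cdkn1c leave a gap around 0, whereas Mcmbp stays between -0.62 and 1.69 and Clcn4 between -2.03 and 1.29.

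The 3 members on each side of Peg3 start 321 to 498 kb from its start, and 5 of the 6 have zinc finger symbols. On the lower side Zfp28, Zfp78 and Gm3854 differed by 2.54 ± 1.95, 2.36 ± 2.00 and 1.81 ± 1.87, and on the higher side Zfp954, Zfp773 and Zfp772 by 2.45 ± 2.83, 3.23 ± 2.06 and 1.97 ± 1.65 (SD, n = 12). These genes had no reads in 4 to 19 of the 36 libraries. They shared the sign of the paternally expressed genes in 5 to 8 of 12 embryos, against 11 of 12 for Peg3. Zfp954 illustrates how few embryos set such a value. Its green minus red difference was 6.17 in E13 replicate 4, 7.90 in E16 replicate 5 and 6.73 in E16 replicate 6, and between -2.59 and 1.35 in the other embryos. These 3 embryos are among the 4 with a library of low correlation, and without those 4 the mean absolute difference of Zfp954 fell from 2.45 to 0.97. Clcn4, the highest member of the window per kb of exon, differed by 0.64 ± 0.56, within 0.02 of the trend, and had the sign of the paternally expressed genes in 7 of 12.

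Around Snrpn no member lies within 100 kb of an imprinted gene. The lncRNA Gm9801, 137 kb from Ndn, differed by 2.48 ± 2.40 and A230057D06Rik, 418 kb from Ndn, by 2.32 ± 2.15, with no reads in 24 and 20 of 36 libraries. Where the colours differed, they had the sign of the paternally expressed genes in 7 of 7 and 8 of 9 embryos, and in the remaining embryos both libraries had 0 reads. No test was made on these signs. Atp10a, 399 kb from Ube3a, differed by 1.42 ± 1.66 and was at 0 in 23 libraries, and Klf13, 1422 kb from Peg12, differed by 1.84 ± 1.10 and shared the sign in 6 of 12 embryos.

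In the Igf2 and Kcnq1 window, 9 of the 12 members within 100 kb of an imprinted gene are found. Near H19, Mrpl23, a mitochondrial ribosomal protein gene at 34.8 kb, differed by 1.24 ± 1.15 (0.74 without the libraries of low correlation), which is 1.04 below the trend, and Lsp1, an F-actin-binding protein of leukocytes, had reads in 6 libraries. Gm33148, a lncRNA gene 13.6 kb from H19, differed by 2.75 ± 3.03 but had reads in 8 of 36 libraries, and in 6 of the 12 embryos both colours were at 0. Members that overlap an imprinted gene were examined separately. R74862 lies antisense to the start of Cd81, a tetraspanin gene, with 104 shared exon bases, and differed by 2.77 ± 1.78 while Cd81 differed by 0.66 ± 0.63. Trpm5, a cation channel of taste cells, shares 220 exon bases with the antisense gene Tssc4 and had reads in 4 libraries. On the far side of Cdkn1c, Cars, at 98.9 kb from the start of Cdkn1c, differed by 1.32 ± 1.65 against 5.10 for Cdkn1c, Tnfrsf22, a decoy TRAIL receptor gene, by 2.3 ± 2.3 (0.97 without the libraries of low correlation), and Dhcr7 by 1.44 ± 1.02. The largest value of Cars, 5.88, was in E16 replicate 5, and without the 4 embryos named above its mean absolute difference was 0.64. Over the 12 members within 100 kb, 7 lay over the trend and 1 was in the highest 10%. Distances were also taken to Osbpl5, Cd81, Tssc4 and Nap1l4, taken here as imprinted mainly in placenta. R74862 and Trpm5 were counted through overlaps with Cd81 and Tssc4, so these values do not describe distance to genes imprinted in cortex alone.

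**Figure D3:**
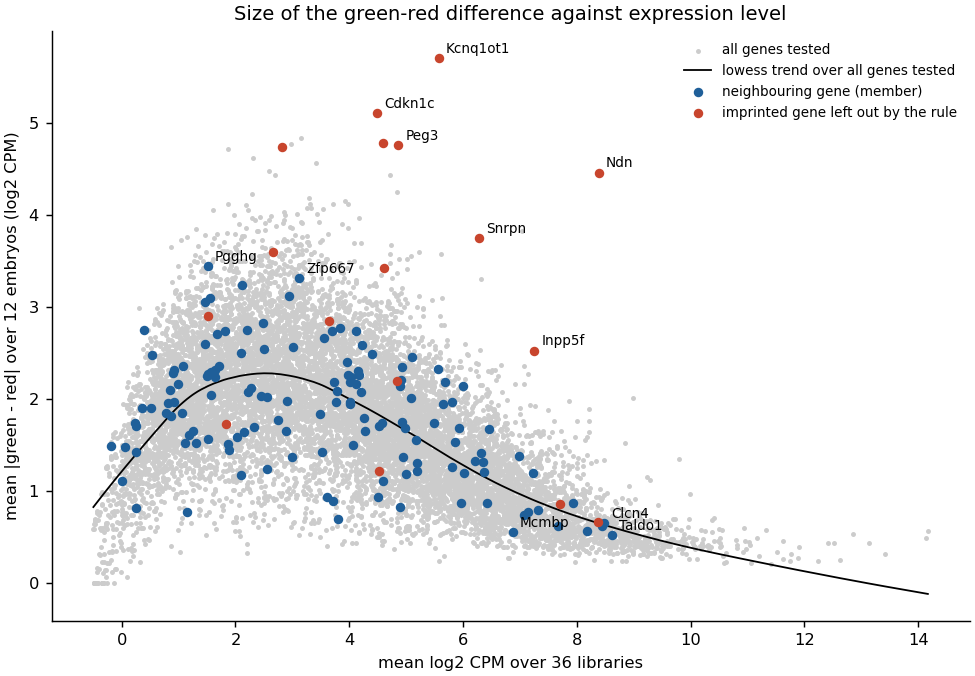
Mean absolute green-red difference over 12 embryos (log2 CPM) against mean log2 CPM over 36 libraries, with all 11472 genes tested in grey, the lowess trend as a line, 136 members in blue and 17 imprinted genes in red. Members follow the grey cloud, with Pgghg at 3.44 and Zfp667 at 3.31 at its upper part and Mcmbp at 0.55 at its lower part.

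The 10 members farthest above the trend were Pgghg, Gm33148, Zfp667, Zfp773, 9130023H24Rik, Armc5, Deaf1, Gm9801, Sez6l2 and Mtmr10, at 0.86 to 1.31 above it. Pgghg, a glucosidase acting on collagen-linked sugars, differed by 3.44 ± 2.46 and lies 1628 kb from H19. Its difference was -1.15, -2.98, 0.00, 8.48 and 4.71 in the E13 embryos, and it had the sign of the paternally expressed genes in 8 of 12 and the opposite sign in 3. Zfp667, 396 kb from Peg3, differed by 3.31 ± 2.01 with values from -5.66 to 7.18 and the sign in 8 of 12, and Armc5, an adaptor of a cullin ubiquitin ligase, differed by 3.06 ± 2.28 with the sign in 4 of 12. Deaf1, a transcription factor gene, and Sez6l2, a neuronal membrane protein gene, were the best covered of the 10, each with reads in 35 of 36 libraries, and differed by 2.32 ± 2.11 and 2.14 ± 1.94 with the sign in 7 and 4 of 12. Of the 13 members in the highest 10%, 8 were also there without the 6 libraries of low correlation, when the tenth held 16 members. Members 100 to 500 kb from an imprinted gene had 6 of 19 in the highest 10% (31.6%, against 10% of all genes). Of the 19, 15 lay over the trend (78.9%, against 50.1% of all genes), with a median distance of 0.36. This group had a median of 13 libraries without reads, against 3 over all members. All genes with a mean count under 50 also had a median of 13, and 9.96% of them were in the highest 10%. No cause of the share in this group was tested.

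The sign of the difference was then compared with that of the paternally expressed genes in each embryo. Of the 10 paternally expressed genes, whose mean defines the direction, 7 had the same sign in 11 or 12 of 12 embryos, and Cdkn1c, which is maternally expressed and took no part in that mean, had the opposite sign in 12 of 12. Ube3a, which is maternally expressed in neurons, had the opposite sign in 10 of 12. Among the members 0 of 136 had the sign in 11 or 12 embryos, against 0.331% of all genes, and 0 had the opposite sign, against 0.157%. An embryo with 0 reads in both colours counts as neither sign, so a member with few reads could hardly reach 11. Of all genes with a mean count under 50, 0% had the sign in 11 or 12 embryos and 0.0508% the opposite sign. That class holds 57 members, for which these counts cannot decide. Of all genes with a mean count of 200 or more, 0.616% had the sign in 11 or 12 embryos and 0.205% the opposite sign. With shares this small, 0 of 136 members does not set the better covered members apart from all genes either. No member shared the sign in more than 10 embryos, a number reached by members including Hirip3, a histone chaperone gene, Gatd1 and Cttn, and none opposed it in more than 10, reached by the kinase gene Taok2. With a limit of 9 or more embryos, 15 members had the sign (11%, against 6.19% of all genes) and 4 the opposite (2.94%, against 4.52%). The mean absolute differences of Cttn and Gatd1 were 0.87 ± 0.74 and 0.93 ± 1.02. The closest imprinted gene of these named members was 679 kb or more away. Within 500 kb, 1 of 31 members had the sign in 9 embryos (Cars). Gm9801 and A230057D06Rik, whose signs are given above, count there as short of 9, since embryos with 0 reads in both colours add nothing.

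**Figure D4:**
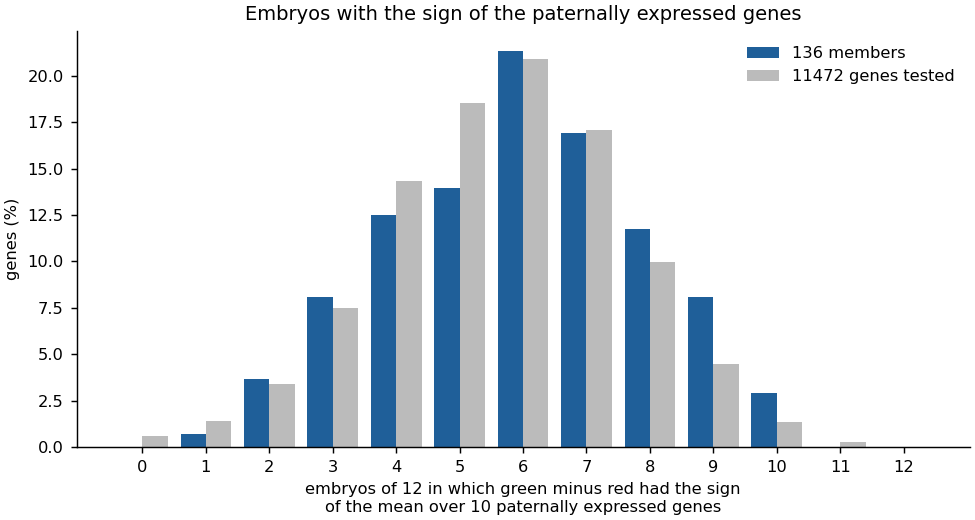
Share of genes (percent) by the number of embryos, of 12, in which green minus red had the sign of the mean over 10 paternally expressed genes, for the 136 members (blue) and all 11472 genes tested (grey). The members reach 10 embryos in 4 genes (2.94%) and none reaches 11 or 12.

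The colours were also compared by test within each age, with the embryo as a block. The study's design also held a term for the sample, but its groups were disomies and not colours, so these contrasts are not those of the study. Of the members 130 passed the filter on low counts at E13 and 122 at E16. By edgeR's quasi-likelihood test 0 members passed an adjusted p of 0.05 between green and red at E13 (0% of all genes), between green and yellow at E13 (0.0255% of all genes, 3 of 11786, with 0.00848% higher and 0.017% lower), between red and yellow at E13 (0%), or in any of these contrasts at E16 (0% each, 10794 genes tested). At an unadjusted p under 0.05 there were 1, 8 and 7 members at E13 and 0, 2 and 2 at E16, in the same order, against 2.21%, 6.36%, 4.69%, 2.33%, 1.54% and 2.90% of all genes. DESeq2 called 1, 7 and 1 members at E13, against 1.94%, 4.43% and 2.72% of all genes, and 1, 0 and 1 at E16, against 0.704%, 0.547% and 1.14%. Its calls were Lsp1 between red and each other colour at E13, Bag3 between red and each other colour at E16, and Gm9967, Aldoa, Kctd13, Rnh1, Cend1, Trpm5 and Shank2 between green and yellow at E13. The contrasts of an age share libraries, and since the parental direction of green and red changes between embryos, an imprinted gene averages out in the green-red contrast as well: Snrpn and Cdkn1c were not called in it either. The study, which compared disomies, reported Cdkn1c to be much lower with paternal than with maternal disomy.

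Among the members named by the smallest p, Aldoa, the glycolytic aldolase, was higher in green than in yellow at E13 by 1.01 ± 0.33 (SE) on the log2 scale. Cend1, a gene of cell cycle exit in neurons, had 0 reads in all 5 green E13 libraries. The adjusted p was 0.60 for both (edgeR). Red E13 libraries were nearly empty of Cend1 as well, with 1 read in replicate 1 and 0 in the others. Yellow E13 libraries held 2, 447, 103, 0 and 40 reads, and the 447 were in replicate 2, a library of low correlation. Kif22 had a green-yellow difference of 2.36 ± 1.07 at E13 with an adjusted p of 0.78. The summed radial glia markers were 1935 to 3318 CPM in green and 785 to 1675 CPM in yellow at E13, and their part in these values was not tested.

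Between the ages few members were called, at a share near that over all genes. Counts were summed over the kept libraries of each embryo and E16 (n = 7) was compared with E13 (n = 6) by edgeR. Of 136 members 4 passed an adjusted p of 0.05 (2.94%, against 3.8% of all genes), 1 higher (0.735%, against 1.92%) and 3 lower at E16 (2.21%, against 1.88%). The median log2 fold change was -0.11 over the members and 0.03 over all 13776 genes tested. For 4 members, Ypel3, Nsmce4a, Dhcr7 and BC017158, the embryo values of the ages did not overlap (2.94%, against 2.95% of all genes).

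Kif22 (ENSMUSG00000030677.8) encodes a kinesin that moves chromosome arms in mitosis. In the 6 E13 embryos it ranged from 22.8 through a median of 86.8 to 135 CPM, and in the 7 E16 embryos from 6.02 through 10.3 to 25.6 CPM. The E13 values were higher except that of replicate 5, from which yellow cells alone were used and which lay among the E16 values. Kif22 was lower at E16 by 2.86 ± 0.44 on the log2 scale (adjusted p = 0.0014, edgeR). In single colours green fell from 109 to 226 CPM at E13 to 0.225 to 22.1 CPM at E16, and red from 46.5 to 159 CPM to 0 to 40.4 CPM, without overlap, while yellow overlapped, at 0 to 82.8 and 0.358 to 15.1 CPM. In yellow libraries alone the difference was -2.07 and was not called. Of the radial glia markers 5 of 8 were lower at E16 and of the projection neuron markers 4 of 8 were higher and 1 lower, with summed levels given above, and their part in the result was not tested. In bulk samples fewer cells of a type and less RNA per cell cannot be told apart.

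Ypel3 (ENSMUSG00000042675.15) was the member that rose. It ranged from 89.0 to 173 CPM at E13 and from 203 to 320 CPM at E16, without overlap, and the difference was 1.11 ± 0.22 on the log2 scale (adjusted p = 0.0087, edgeR). By colour, red stood at 64.1 to 121 CPM at E13 and 217 to 599 CPM at E16, green at 81.2 to 200 and 122 to 306 CPM, and yellow at 77.2 to 180 and 4.49 to 335 CPM. Red was the colour without overlap. In yellow libraries alone the difference was 0.43 and was not called.

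**Figure D5:**
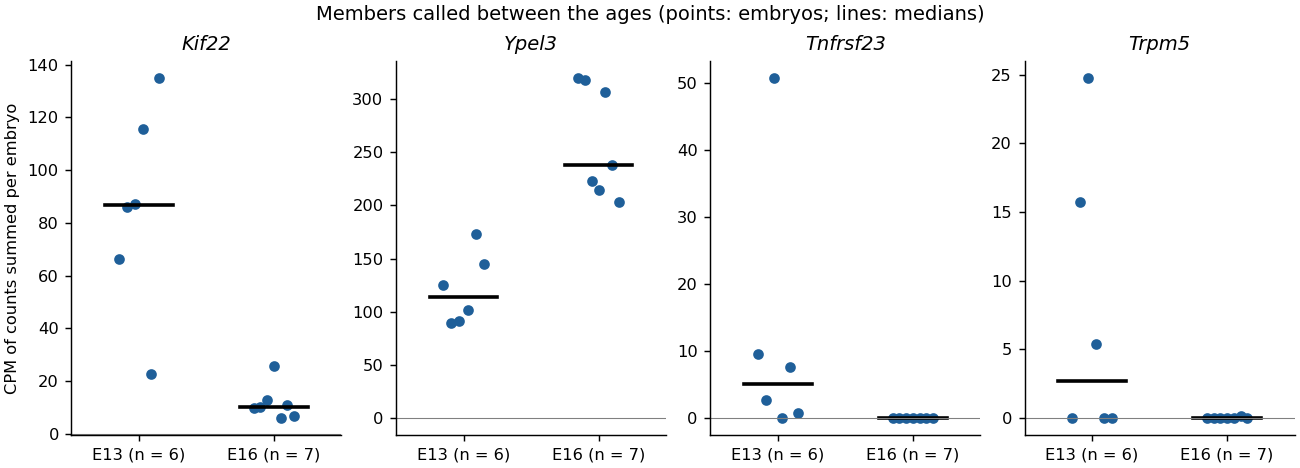
CPM of counts summed per embryo for the 4 members that passed the test between E16 and E13, with 1 point per embryo (6 at E13, 7 at E16) and a line at the median of each age. Kif22 has a single E13 embryo among the E16 values, Ypel3 does not overlap, and at E13 Tnfrsf23 is at 0 in 1 embryo and Trpm5 in 3.

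The promoters of Kif22 and Ypel3 are shown because they are the members called between the ages with reads in most libraries. RefSeq windows of 250 bases before to 50 after the start (GRCm38.p6) were found for 110 of 136 members, in 147 windows. Capitals mark CCAAT, the box bound by NF-Y, and TTTGAA, the cell cycle homology element of many G2/M genes, each searched on both strands, so that capitals also mark the reverse complements. The 2 motifs do not overlap in these windows.
Kif22 (chr7:127042371-127042670, minus strand): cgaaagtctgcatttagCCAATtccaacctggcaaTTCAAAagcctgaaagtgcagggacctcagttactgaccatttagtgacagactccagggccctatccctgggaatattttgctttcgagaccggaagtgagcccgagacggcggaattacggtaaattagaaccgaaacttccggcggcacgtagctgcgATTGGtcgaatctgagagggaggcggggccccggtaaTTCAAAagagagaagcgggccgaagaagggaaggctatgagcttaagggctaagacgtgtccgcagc
Ypel3 (chr7:126776713-126777012, plus strand): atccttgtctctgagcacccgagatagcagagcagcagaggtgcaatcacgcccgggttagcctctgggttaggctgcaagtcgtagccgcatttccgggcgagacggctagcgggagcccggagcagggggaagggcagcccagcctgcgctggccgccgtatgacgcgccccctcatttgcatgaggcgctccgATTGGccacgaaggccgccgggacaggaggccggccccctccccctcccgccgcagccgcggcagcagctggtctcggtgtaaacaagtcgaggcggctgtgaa

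The Kif22 window holds CCAAT starting 233 and 54 bases before the start and TTTGAA starting 215 and 17 bases before it, while the Ypel3 window holds CCAAT at 54 bases before the start and no match to the other motif. The box was present in 40.1% of the members' windows and 37.4% of all 32851 windows, and the cell cycle element in 8.16% and 17.9%. The members' windows had a median of 20 CG dinucleotides, against 7 over all windows, with 19 in Kif22 and 28 in Ypel3. The members were selected on read count and the set of all windows was not. These values therefore do not set the members apart from other genes of similar counts, whose windows were not compared. A match is a description of these letters and was not tied to binding.

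The other 2 called members rest on few libraries. Tnfrsf23, which like Tnfrsf22 encodes a decoy TRAIL receptor and lies 2.89 kb from Osbpl5, had 9.56, 2.62, 50.7, 0, 7.61 and 0.807 CPM in the 6 E13 embryos and 0 reads in all E16 embryos. Summed over embryos this is at least 182-fold lower at E16, taking 3 counts over the group as the floor, and at least 71.7-fold lower without E13 replicate 3, when the gene was no longer called (adjusted p = 0.060, edgeR). Trpm5 had 0, 15.7, 24.8, 5.38, 0 and 0 CPM at E13 and 0.153 CPM in a single E16 embryo (adjusted p = 0.039, edgeR). It was lost on leaving out any of 10 single embryos, among them E13 replicates 2, 3 and 4, with adjusted p-values of 0.062, 0.082 and 0.065. Summed meningeal and choroid plexus markers were 24 to 180 CPM at E13 and 3.44 to 83.9 CPM at E16, and those of interneurons 16.9 to 141 and 0.136 to 13.9 CPM. The first list was mixed, with log2 changes of -4.24 for Dcn, -4.66 for Lum and 3.04 for Ttr. Median log2 changes were -2.76 over erythroid, -2.73 over endothelial and pericyte and -2.28 over microglia markers, with 0 markers of these lists called. The part of these cell types was not tested.

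By function, 84 of the 136 members were placed in 6 lists, 3 of them in 2 lists, and 52, among them Tnfrsf23 and Trpm5, were in none. Of 10 members of cell division and genome maintenance, 1 was lower at E16 (Kif22) and 9 were not called, with a median log2 change of -0.62. Of all genes tested 1.88% were lower and 1.92% higher, so 1 call in a list of this size says little about its functions. Below the threshold, Nsmce4a went from 517 ± 68.3 CPM (SD, n = 6) to 276 ± 115 CPM (SD, n = 7, adjusted p = 0.078, edgeR) and Slx1b, a structure-specific nuclease subunit, from 12.9 ± 11.4 to 3.28 ± 1.46 CPM (adjusted p = 0.14). Mcmbp stood at 121 ± 28.9 and 129 ± 60.3 CPM. Of 16 members listed under lysosome, trafficking and cytoskeleton, 1 was higher (Ypel3) and 15 were not called, with a median of 0.15. Ypel3 was placed in this list although it is described above as linked to growth arrest, so its call says nothing about these functions. Sgf29 is also in the chromatin list. Kctd13, a cullin-3 adaptor, went from 16.7 ± 10.6 to 46.4 ± 37.9 CPM (adjusted p = 0.13).

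In the other 4 lists no member was called, against 3.8% of all genes in either direction. Among 13 of synapse and neuronal membrane the median was 0.11, and Clcn4 missed the threshold with 269 ± 39.7 CPM at E13 and 494 ± 186 CPM at E16 (log2 change 0.88 ± 0.24, adjusted p = 0.054). Among 26 of chromatin and transcription the median was -0.06, with Bcl7c, a subunit of BAF chromatin remodelling complexes, at 17.5 ± 6.24 and 38.4 ± 23.5 CPM (adjusted p = 0.21). Among 9 of growth factor and MAP kinase signalling the median was -0.29, and Ric8a, a chaperone of G protein alpha subunits, went from 130 ± 25.5 to 77.8 ± 22 CPM (adjusted p = 0.10). Among 13 of metabolism and mitochondria the median was -0.22. Dhcr7 went from 13.4 ± 3.26 to 2.10 ± 2.43 CPM (adjusted p = 0.10), without overlap between the ages, and Ptdss2, a phosphatidylserine synthase, from 53.2 ± 40.1 to 18.8 ± 11.2 CPM (adjusted p = 0.11). The median over all genes tested was 0.03.

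The imprinted genes beside them were called in 1 case, Inpp5f, which was higher at E16 by 1.28 ± 0.33 on the log2 scale (adjusted p = 0.039, edgeR). Its neighbour Mcmbp had a log2 change of 0.10 ± 0.28 and Tial1 of -0.01 ± 0.27, neither of which passed the test, and the difference between the genes was not tested. Peg3 had -1.18 ± 0.43 (adjusted p = 0.12) beside Zfp954 with 0.49 ± 0.30, and Cdkn1c -0.80 ± 0.48 (adjusted p = 0.39) beside Cars with -0.22 ± 0.35.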

How the data were processed

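RNA-seq libraries of sorted MADM cells were made with Smart-Seq2, which marks neither molecules nor strand. The authors aligned reads with STAR 2.5.0c to GRCm38 with the Gencode M16 annotation, and deposited raw read counts per gene for each library. Reads that overlap exons of more than 1 gene are ambiguous in such tables and not counted. The unstranded counts were used, with symbols and coordinates from Gencode M21 (53274 of 53379 genes matched). Libraries with under 40% uniquely aligned reads (18.8% to 36.1%, 3 of 39) were left out. The study also removed libraries of low correlation with the others, which is an alternative here by a rule of this work. Reads without a feature (12.8% to 53.2% of unique reads over the 39 libraries) and ambiguous reads (3.30% to 18.5%) were kept out of library sizes. Gene counts were 472924 to 5205788 per library. Floors of 3 counts cover counting error only, since PCR reads are not independent molecules.

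Groups are age and colour from the labels. Same-numbered libraries of an age were taken as 1 embryo, since the treatment protocol names individuals as replicates. Their deviations from colour means had a mean correlation of 0.044 at E13 (13 pairs) and 0.029 at E16 (21 pairs), against -0.0092 and -0.0036 between different numbers. The tool for all genes of mean count 10 or more was edgeR 4.0.16, run in R 4.3.3 (quasi-likelihood test, TMM, embryo as block within an age, Benjamini-Hochberg over all genes, threshold 0.05), and ages on counts summed per embryo. DESeq2 1.42.0 and limma 3.58.1 were alternatives. CPM used TMM library sizes. The trend of the absolute green-red difference on mean log2 CPM was a lowess (fraction 0.3, statsmodels 0.14.6). Scripts were tested on simulated data.

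The members, lists and tests were chosen with earlier results of these data known. Genes named are the up to 3 members on each side of Peg3, Snrpn, Inpp5f, Igf2 and Cdkn1c, the 10 members farthest above the trend, those overlapping an imprinted gene, those called, the 3 highest per kb of exon in each window, up to 4 per list with the smallest p for age, and 2 on each side of the count threshold. Members of high or extreme sign counts, of non-overlapping ages, of small unadjusted p and of DESeq2 calls were named after their values were seen.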

Additional observations from a re-analysis of the deposited data

Results flagged for a closer look

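Dixon's criterion was applied to 23 sets of embryo values and set 1 value apart in 4 of them. Its rate of about 1 of 20 sets by chance assumes normally distributed values. That rate does not hold here, since some sets are mostly zeros and most sets are of genes picked from the results above. Tnfrsf23 stood at 50.7 CPM in E13 replicate 3, where the next highest embryo had 9.56 CPM. Kif22 stood at 25.6 CPM in E16 replicate 4, above 12.8 CPM in the next embryo and below the E13 embryos other than replicate 5. Trpm5 had 0.153 CPM in E16 replicate 6 and 0 in the other 6 embryos of that age. Cars had a green minus red difference of 5.88 in E16 replicate 5, whose red library is among those of low correlation, with 0.87 as the next highest value. In 0 members did green minus red have 1 sign in every E13 embryo and the other in every E16 embryo.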

How the results depend on the processing

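The count of 0 members called between colours was the same without the replicate block, with RLE normalisation, without the count filter, with all libraries kept at E13, without the libraries of low correlation and without each replicate number (0 to 0 in each contrast). With DESeq2, which called more of all genes as well, it was 1, 7 and 1 at E13 (green against red, green against yellow, red against yellow, with 1.94%, 4.43% and 2.72% of all genes) and 1 in green against red and 1 in red against yellow at E16 (0.704% and 1.14%). The count of members higher at E16 was 0 in yellow libraries alone (0.0967% of all genes), 3 with DESeq2 (4.47%) and 3 with limma-voom on libraries (4.18%). It was 1 without the libraries of low correlation (2.91%). On leaving out each embryo it was 1 to 2 (1.1% to 1.93%), where Clcn4 was added without E16 replicate 1 or 2. The count lower at E16 was 1 in yellow libraries alone (0.0527% of all genes), 1 in embryos with all 3 colours (1.32%), 8 with DESeq2 (4.75%) and 10 with limma-voom (6.55%). It was 4 without the libraries of low correlation (3.96%). On leaving out each embryo it was 1 to 3 (1.08% to 2.33%), with 1 without E13 replicate 3 (1.31%). Kif22 was called in every one of these settings but yellow libraries alone, and Ypel3 in every one but yellow libraries alone and limma-voom. In yellow libraries alone the change with age of Deaf1 (-0.18), Hras (0.11) and Kctd13 (-0.0216) turned sign. The cause of these changes was not tested. The median absolute green-red difference over members was 1.84, 2.30 with a prior count of 0.5 (2.09 over all genes), 1.5 without the libraries of low correlation (1.34), 1.36 as a median over embryos (1.17), and 1.77 to 1.90 on leaving out each embryo. The number of members in the highest 10% was 9 to 17 over its alternatives. The sign of the paternally expressed genes, or its opposite, was found in all embryos but 1 or more in 0 members (0.488% of all genes). On leaving out each embryo this was 0 to 3 members (0.697% to 1.02% of all genes). In the 8 embryos without low-correlation libraries it was 8 of 133 members and 5.99% of all genes. These last 2 counts and their alternatives were chosen after seeing the data. All libraries are kept at E16 by the 40% rule, so that alternative has no value there.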
